A study of Mus musculus with 7 samples.

Results

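Described here are Trp53, which encodes the transcription factor p53, and 9 of its direct target genes: Mdm2, Cdkn1a, Bax, Bbc3, Ccng1, Phlda3, Sesn1, Zmat3 and Eda2r. The members were taken by gene symbol from the count table, which held all 10 among its 54532 genes, and all 10 were among the 16308 genes that passed the filter on low counts. The libraries come from motor cortex of mice injected on postnatal day 0 with a virus named GA100 into both lateral ventricles, and tissue was taken 3 months later. By the labels 3 libraries are WT and 4 are cKO (conditional knockout). The labels name neither the deleted gene nor the Cre driver, the cells that carry the deletion or the strain; the series title names TIA1 and a C9orf72 poly-GA mouse model, in which a glycine-alanine dipeptide repeat protein is made. Both groups received the virus, uninjected mice were not analysed here, and the labels do not say in so many words that each library is a separate animal, so the spread between libraries may be technical in part.

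p53 is held at low levels in unstressed cells because MDM2, itself a p53 target, binds it and marks it for degradation; DNA damage and other stresses release it. It then raises genes that stop the cell cycle (Cdkn1a), that open the way to mitochondrial apoptosis (Bax, Bbc3) and that feed back on p53 or on growth signalling (Mdm2, Ccng1, Phlda3, Sesn1). p53 is mainly controlled as a protein, so the level of its own transcript is not a measure of its activity. Neurons do not divide, and in them the pathway is known chiefly for its part in cell death after DNA damage; p53 and Bbc3 have been studied in poly-dipeptide models of C9orf72 disease.

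Library totals ran from 15181390 to 16463721 counts, and summed marker levels for excitatory neurons were 3686 to 5082 CPM (library-scaled counts), with 0 of these 5 markers at 0 in all libraries. Tia1, read as the targeted gene from the title, did not have lower values with the label cKO: it had 60.6, 95.8 and 68.9 CPM in WT replicates 1 to 3 and 81.4, 80.3, 72.7 and 81.9 CPM in cKO replicates 1 to 4 (log2 fold change 0.07 ± 0.13, SE; edgeR adjusted p = 0.914). Since a whole-gene count can miss a deletion of a few exons, Tia1 does not check the labels, and every direction below is for the libraries labelled cKO. cKO replicate 4 stood apart for choroid plexus markers (171 CPM, against 14.2 to 21.6 in the others) and cKO replicate 3 for olfactory bulb markers (131 CPM, against 1.93 to 4.04). WT replicate 1 and cKO replicate 1 had 15217 and 19151 counts of Xist and 0 of the Y-linked Ddx3y, while the other 5 libraries had 0 to 8 counts of Xist and 1073 to 1386 of Ddx3y.

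The p53 protein binds pairs of a short palindromic half-site, and the stretches before the start sites of 5 targets are shown because a pair with at most 3 mismatches to that consensus lies there; Trp53 and a second Bbc3 window, whose best pairs also had 3, are not printed. RefSeq promoter windows (GRCm38.p6, 250 bases before to 50 after a start site) were matched by symbol to Trp53, Mdm2, Cdkn1a, Bax, Bbc3, Ccng1, Phlda3, Sesn1 and Eda2r, 13 windows in all; Zmat3 was not matched. The search looked for 2 p53 consensus half-sites of 10 bases, with the C and G of the core CNNG required, at most 3 other mismatches in each and a spacer of up to 13 bases. The half-site is its own reverse complement, so both strands are covered. Sequences run 5′ to 3′ on the strand of the gene, and capitals mark the half-sites.
Cdkn1a: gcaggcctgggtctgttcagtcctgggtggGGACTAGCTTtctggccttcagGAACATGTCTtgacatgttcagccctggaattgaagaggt
Ccng1: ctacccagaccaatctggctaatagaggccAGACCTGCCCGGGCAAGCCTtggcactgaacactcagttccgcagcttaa
Bax: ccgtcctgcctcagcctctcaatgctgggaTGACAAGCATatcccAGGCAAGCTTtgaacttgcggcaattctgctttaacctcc
Sesn1: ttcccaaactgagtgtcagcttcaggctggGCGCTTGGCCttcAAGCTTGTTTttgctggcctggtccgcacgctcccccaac
Bbc3: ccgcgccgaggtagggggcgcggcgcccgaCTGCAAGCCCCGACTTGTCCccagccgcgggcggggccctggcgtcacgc

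The Cdkn1a pair (chr17:29090906-29090937, forward strand) had 0 mismatches and a spacer of 12 bases, and ended 41 bases before the start site of the longer transcript. Its second half-site is followed with no spacer by a further one with 1 mismatch. In the window of the downstream start site of Cdkn1a the best pair had 5 mismatches. The Ccng1 pair (chr11:40755462-40755481, reverse strand) had 1 mismatch and no spacer. Pairs with 2 mismatches lay before Bax (chr7:45467090-45467114, reverse strand) and before the downstream start site of Sesn1 (chr10:41887253-41887275, forward strand), the latter in an intron of the longer gene model. The Bbc3 pair (chr7:16309486-16309505, forward strand, intronic in the longer gene model) had 3 mismatches and no spacer. Of all 32851 promoter windows, 0.0731% held a pair with no mismatch, 0.627% one with at most 1, 4.09% one with at most 2 and 15.6% one with at most 3. These shares are per window, while Cdkn1a, Sesn1 and Bbc3 each had more than 1 window, which makes a match for the gene likelier. The best pair in the other Sesn1 window had 5 mismatches, and those in the other Bbc3 windows had 3 and 6. The best pairs for Trp53, Mdm2 and Phlda3 had 3, 4 and 5 mismatches, and for Eda2r none was found. These matches are letters in these windows and not measured binding; sites elsewhere in the genes were not searched.

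The question put to the count data was whether these genes differ between motor cortex of the 2 genotypes. Mdm2 had higher values in every library labelled cKO than in every WT library, while Trp53 and the pro-apoptotic gene Bbc3 had lower values in every one. Log2 fold changes (cKO minus WT, here and throughout) were 0.30 for Mdm2, -0.26 for Trp53 and -0.50 for Bbc3. None passed the threshold: edgeR's quasi-likelihood test called 0 of the 10 members at an adjusted p under 0.05 (background 0% of 16308 genes called), with 3 at an unadjusted p under 0.05. DESeq2 and limma-voom also called 0 members, with 2 and 3 at an unadjusted p under 0.05. When edgeR blocked on replicate number, 0 members were again called and Mdm2 alone of the 10 had an unadjusted p under 0.05. In that fit cKO replicate 4 had no WT library of the same number, and so added nothing to the estimated difference. Among all genes tested 7.14% had an unadjusted p under 0.05, against 3 of these 10 members (30%). Groups did not overlap for 7.38% of all genes, against 3 of these 10 members (30%). Of all genes, 3.97% lay apart as higher and 3.42% as lower in the libraries labelled cKO. The members were chosen with earlier results of these data known, so these shares cannot be read as an excess. Over the 10 members, 7 log2 fold changes were positive and 3 negative, with a median of 0.07, beside 51.8% positive and a median of 0.01 among all genes. Of the 9 targets 7 had positive and 2 negative values.

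**Figure D1:**
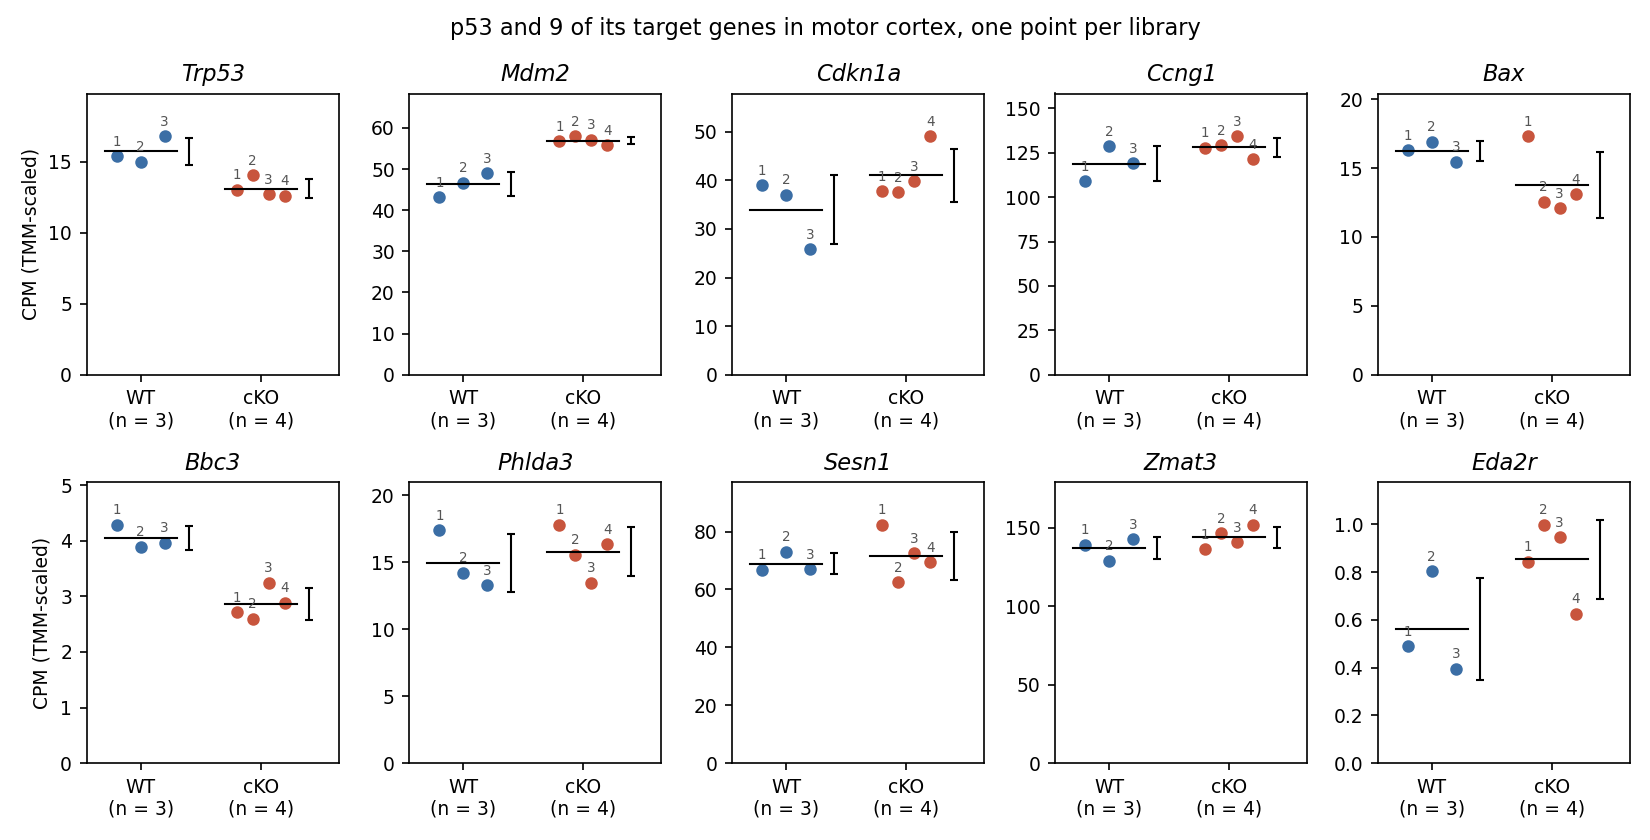
CPM (y axis, from 0) of the 10 genes in each library, with replicate numbers beside the points; horizontal lines are group means and vertical bars 1 SD (WT, n = 3; cKO, n = 4). The groups are apart for Trp53, Mdm2 and Bbc3 and overlap for the other 7 genes.

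Trp53 (ENSMUSG00000059552, chromosome 11, 69580359 to 69591873, mm10, forward strand) had 15.4, 15.01 and 16.8 CPM in WT replicates 1 to 3 and 13.02, 14.03, 12.7 and 12.6 CPM in cKO replicates 1 to 4. The lowest WT library, replicate 2, lay 0.972 CPM above the highest library labelled cKO, replicate 2. Group means were 15.7 ± 0.935 CPM (SD, n = 3) and 13.1 ± 0.654 CPM (SD, n = 4), a difference of -16.7% with a log2 fold change of -0.26 ± 0.11 (SE; 95% interval -0.51 to -0.02; edgeR adjusted p = 0.694). Over 22 other settings the log2 fold change ran from -0.31 to -0.21, with an unadjusted p under 0.05 in 11 of them and adjusted p from 0.507 to 1.00.

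Mdm2 (ENSMUSG00000020184, chromosome 10, 117688875 to 117710758, reverse strand) encodes the ubiquitin ligase that holds p53 down. It had 43.1, 46.7 and 48.9 CPM in WT replicates 1 to 3 and 56.8, 57.9, 57.1 and 55.8 CPM in cKO replicates 1 to 4. All libraries labelled cKO lay within 2.11 CPM of each other and at least 6.89 CPM above WT replicate 3, the highest WT library. The group means of 46.3 ± 2.92 CPM (SD, n = 3) and 56.9 ± 0.870 CPM (SD, n = 4) correspond to a difference of 23.0% and a log2 fold change of 0.30 ± 0.08 (SE; 95% interval 0.13 to 0.47). Of the 10 members Mdm2 had the smallest unadjusted p in edgeR, 0.00249, with an adjusted p of 0.679. Its log2 fold change was 0.25 to 0.34 over 22 other settings, with an unadjusted p under 0.05 in 22 of 22 and adjusted p from 0.238 to 1.00.

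Cdkn1a (ENSMUSG00000023067, chromosome 17, 29090976 to 29100727, forward strand) encodes p21, the inhibitor of cyclin-dependent kinases through which p53 arrests dividing cells. Its values were 39.0, 37.1 and 25.8 CPM in WT replicates 1 to 3 and 37.7, 37.5, 39.8 and 49.1 CPM in cKO replicates 1 to 4. WT replicate 3 was low and cKO replicate 4 high, and the other 5 libraries lay between 37.1 and 39.8 CPM, so the groups overlapped. The log2 fold change was 0.27 ± 0.14 (SE; 95% interval -0.04 to 0.59; edgeR adjusted p = 0.715). It was 0.11 without WT replicate 3, 0.17 with cKO replicate 4 left out and 0.14 with cKO replicates 3 and 4 left out, and 0.42 without WT replicate 1 and cKO replicate 1.

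Ccng1 (ENSMUSG00000020326, chromosome 11, 40748552 to 40755311, reverse strand) encodes cyclin G1, which recruits a phosphatase to MDM2. It had 109, 129 and 119 CPM in WT replicates 1 to 3 and 128, 129, 134 and 121 CPM in cKO replicates 1 to 4. WT replicate 1 was the lowest and cKO replicate 3 the highest library, and WT replicate 2 lay among those labelled cKO. The log2 fold change was 0.11 ± 0.08 (SE; 95% interval -0.06 to 0.28; edgeR adjusted p = 0.783), and 0.044 without WT replicate 1. Cdkn1a and Ccng1, whose promoter windows held the 2 closest pairs shown above, had positive log2 fold changes that did not pass the test. Of the others shown above, Sesn1 had a positive value and Bax and Bbc3 negative ones. Whether the closeness of a pair goes with direction was not tested.

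Bbc3 (ENSMUSG00000002083, chromosome 7, 16308393 to 16318205, forward strand) encodes PUMA, a BH3-only protein that frees BAX and BAK to permeabilise mitochondria. Counts were low, 70, 63 and 60 in WT replicates 1 to 3 and 45, 39, 48 and 46 in cKO replicates 1 to 4. In CPM these were 4.28, 3.89 and 3.96 against 2.71, 2.59, 3.25 and 2.88, so every library labelled cKO lay below every WT library. The group means were 4.05 ± 0.209 CPM (SD, n = 3) and 2.86 ± 0.284 CPM (SD, n = 4), a difference of -29.3% with a log2 fold change of -0.50 ± 0.19 (SE; 95% interval -0.91 to -0.09; edgeR adjusted p = 0.694). On the log2(FPKM + 1) scale, which shrinks changes of low genes, the value was -0.31; over 22 other settings it ran from -0.61 to -0.31, with an unadjusted p under 0.05 in 19.

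Bax (ENSMUSG00000003873, chromosome 7, 45461697 to 45466898, reverse strand) encodes the pore-forming protein of the mitochondrial outer membrane on which PUMA acts. It had 16.3, 16.9 and 15.5 CPM in WT replicates 1 to 3 and 17.3, 12.6, 12.1 and 13.1 CPM in cKO replicates 1 to 4. cKO replicate 1 was the highest of all libraries and the other libraries labelled cKO were the 3 lowest. The log2 fold change was -0.23 ± 0.14 (SE; 95% interval -0.54 to 0.07; edgeR adjusted p = 0.738). Without cKO replicate 1 it was -0.37 with an edgeR adjusted p of 0.445, and without cKO replicates 3 and 4 it was -0.12.

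**Figure D2:**
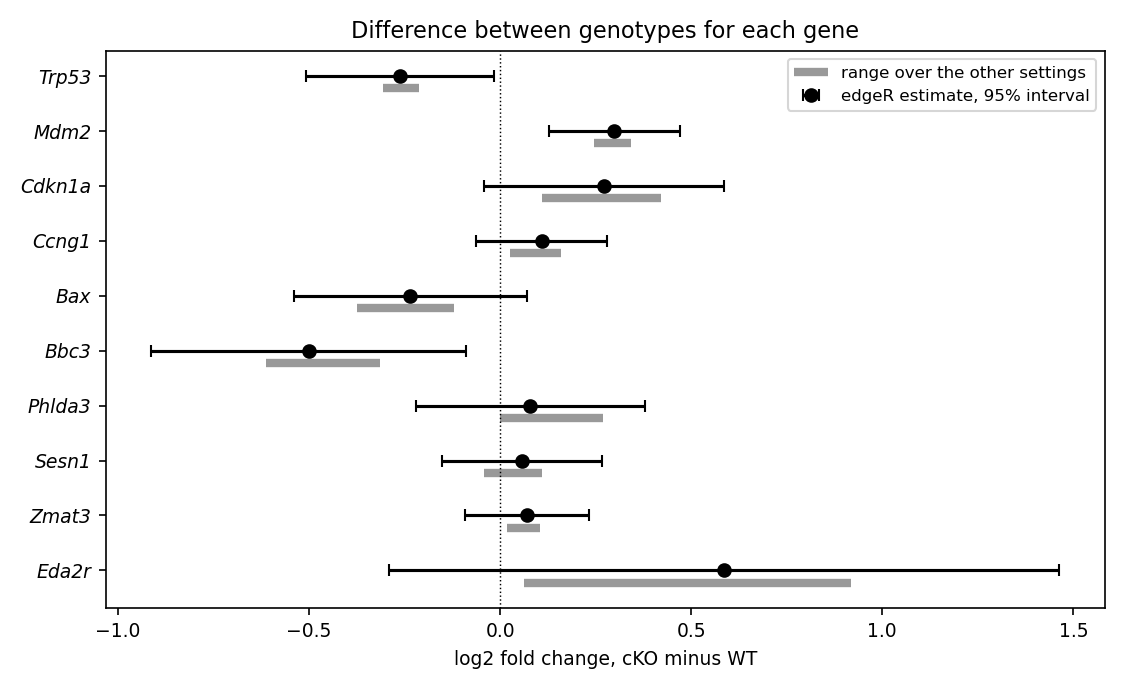
Log2 fold change of each gene (x axis, cKO minus WT): points are edgeR estimates with 95% intervals, and grey bars the range over the other settings and left-out libraries. Intervals lie on one side of 0 for Trp53, Mdm2 and Bbc3, and the grey bar crosses 0 for Sesn1 alone among the 10 genes.

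Log2 fold changes were 0.06 to 0.08 for Phlda3, Sesn1 and Zmat3, while that of Eda2r, at 0.59, was the largest of the 10 members and the least precise. Phlda3 (ENSMUSG00000041801, chromosome 1, 135766119 to 135769136) encodes a pleckstrin homology domain protein that restrains AKT signalling, and had 17.4, 14.2 and 13.3 CPM in WT replicates 1 to 3 and 17.8, 15.6, 13.5 and 16.4 CPM in cKO replicates 1 to 4. Its 2 highest libraries were WT replicate 1 and cKO replicate 1, those with the high Xist counts, and the log2 fold change was 0.08 ± 0.14 (SE; 95% interval -0.22 to 0.38; edgeR adjusted p = 0.913). Without WT replicate 1 it was 0.20, and without WT replicate 3 it was 0.00041.

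Sesn1 (ENSMUSG00000038332, chromosome 10, 41809935 to 41908424) encodes sestrin 1, an inhibitor of the growth regulator mTORC1. It had 66.8, 73.1 and 66.9 CPM in WT replicates 1 to 3 and 82.3, 62.5, 72.4 and 69.4 CPM in cKO replicates 1 to 4, so that libraries labelled cKO were both the highest and the lowest. The log2 fold change was 0.06 ± 0.10 (SE; 95% interval -0.15 to 0.27; edgeR adjusted p = 0.910), and its sign turned without cKO replicate 1 (-0.026).

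Zmat3 (ENSMUSG00000027663, chromosome 3, 32334792 to 32366014) encodes a zinc finger RNA-binding protein, and was the member with the highest CPM: 139, 129 and 143 in WT replicates 1 to 3 and 136, 147, 141 and 152 in cKO replicates 1 to 4. The groups overlapped, with a log2 fold change of 0.07 ± 0.07 (SE; 95% interval -0.09 to 0.23; edgeR adjusted p = 0.853), and 0.018 without WT replicate 2. For Zmat3, Sesn1 and Ccng1 the upper ends of the 95% intervals correspond to increases of 17.4%, 20.2% and 21.4% in the libraries labelled cKO. The lower ends correspond to changes of -6.11%, -10.1% and -4.30%.

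Eda2r (ENSMUSG00000034457, chromosome X, 97333840 to 97377216), a receptor of the tumour necrosis factor receptor family that binds ectodysplasin A2, was close to the limit of detection. It had 8, 13 and 6 counts in WT replicates 1 to 3 and 14, 15, 14 and 10 in cKO replicates 1 to 4, and the groups overlapped. The log2 fold change of 0.59 ± 0.40 (SE; 95% interval -0.29 to 1.46; edgeR adjusted p = 0.770) is therefore wide. It was 0.92 without WT replicate 2, 0.40 without WT replicate 3 and 0.063 on the log2(FPKM + 1) scale with no filter.

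The spread within groups can be set beside that expected from counting alone, taken as 1 over the root of the mean count. For Mdm2 the coefficient of variation was 6.31% in WT and 1.53% in the libraries labelled cKO, against 3.49% from counting. Trp53 had 5.95% and 4.99% against 6.69%, and Bbc3 had 5.18% and 9.95% against 13.7%. The libraries of each group thus lay as close to each other as counting error, or closer, for Trp53 and Bbc3 in both groups and for Mdm2 in the libraries labelled cKO. An SD from so few libraries is itself imprecise, so a spread below counting error is not a sign of tighter replication. Cdkn1a varied beyond counting in both groups, with 20.9% in WT and 13.3% in the libraries labelled cKO against 4.09%. So did Phlda3 (14.4% and 11.4% against 6.41%), Ccng1 (8.37% and 4.11% against 2.26%) and Zmat3 (5.23% and 4.72% against 2.13%). Sesn1 did too, with 5.21% and 11.5% against 3.00%. Bax did so in the libraries labelled cKO alone (17.4% against 6.54%, with 4.54% in WT).

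Exons of 2 members overlap those of another gene in the GENCODE annotation, and the libraries carry no stated strand information. Cdkn1a shares 273 of 3553 exonic bases with AC167363.2 on the opposite strand, which had 0.122 to 0.627 CPM, and Bax shares 192 of 1576 with Gm45808, which had 0 counts in all libraries. The other 8 members shared no exonic base.

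Levels of different genes were compared per length, as FPKM over the 7 libraries. Ccng1 was highest (mean 35.2, range 31.1 to 38.3 FPKM), followed by Sesn1 (17.6, 15.5 to 20.4 FPKM), and these ranges overlapped neither each other nor those of any other member. Zmat3 (12.3), Cdkn1a (10.7), Mdm2 (10.3), Phlda3 (9.86) and Bax (9.36 FPKM) formed a group in which every neighbouring pair overlapped. Below them, with no overlap between neighbours, came Trp53 (3.50, 3.09 to 4.15 FPKM), Bbc3 (1.58, 1.21 to 2.02 FPKM) and Eda2r (0.123, 0.0673 to 0.168 FPKM). The cell cycle gene Cdkn1a stood at the level of Mdm2 and Bax, and 7 of the 9 targets stood above Trp53 itself in every library.

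**Figure D3:**
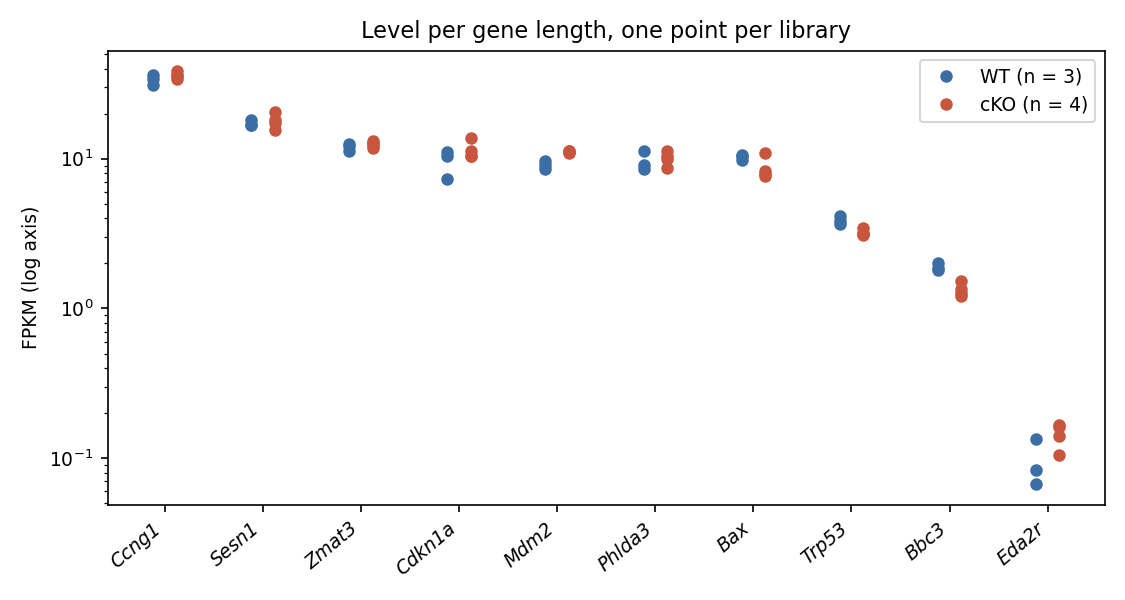
FPKM on a log axis for the 10 genes, ordered by their mean over the 7 libraries, with 1 point per library (WT, n = 3; cKO, n = 4). Ccng1 and Sesn1 lead, 5 genes share a level near 10 FPKM, and Trp53, Bbc3 and Eda2r lie below.

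Ratios of 2 genes within a library do not depend on how libraries are scaled, and were chosen after the values had been seen, so no test is given. The ratio of Mdm2 to Trp53 in FPKM was 2.24, 2.48 and 2.32 in WT replicates 1 to 3 and 3.47, 3.28, 3.57 and 3.53 in cKO replicates 1 to 4. The mean ratio was 1.48 times as high in the libraries labelled cKO, and the groups lay apart, with SDs of 0.122 (n = 3) and 0.126 (n = 4). This separation follows from Mdm2 being higher and Trp53 lower in every library labelled cKO, and is not a further result. Ratios to Trp53 were also higher in each library labelled cKO for Ccng1 (8.16 to 9.88 in WT, 10.6 to 12.2 in cKO) and Cdkn1a (1.75 to 2.89 in WT, 3.04 to 4.43 in cKO). Both genes overlapped between groups on their own, so these separations rest on dividing by Trp53. Such a separation was common: 32.8% of all genes tested had a higher ratio to Trp53 in every library labelled cKO than in every WT library.

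By contrast the ratio of Mdm2 to Mdm4, the second p53-binding partner of the MDM family, overlapped (1.22 to 1.504 in WT, 1.40 to 1.69 in cKO). The ratio of Bax to the anti-apoptotic gene Bcl2 was 2.78, 3.14 and 2.53 in WT replicates 1 to 3 and 3.07, 1.85, 1.85 and 1.89 in cKO replicates 1 to 4. Here cKO replicate 1 lay with the WT libraries and the other 3 lay below all of them.

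**Figure D4:**
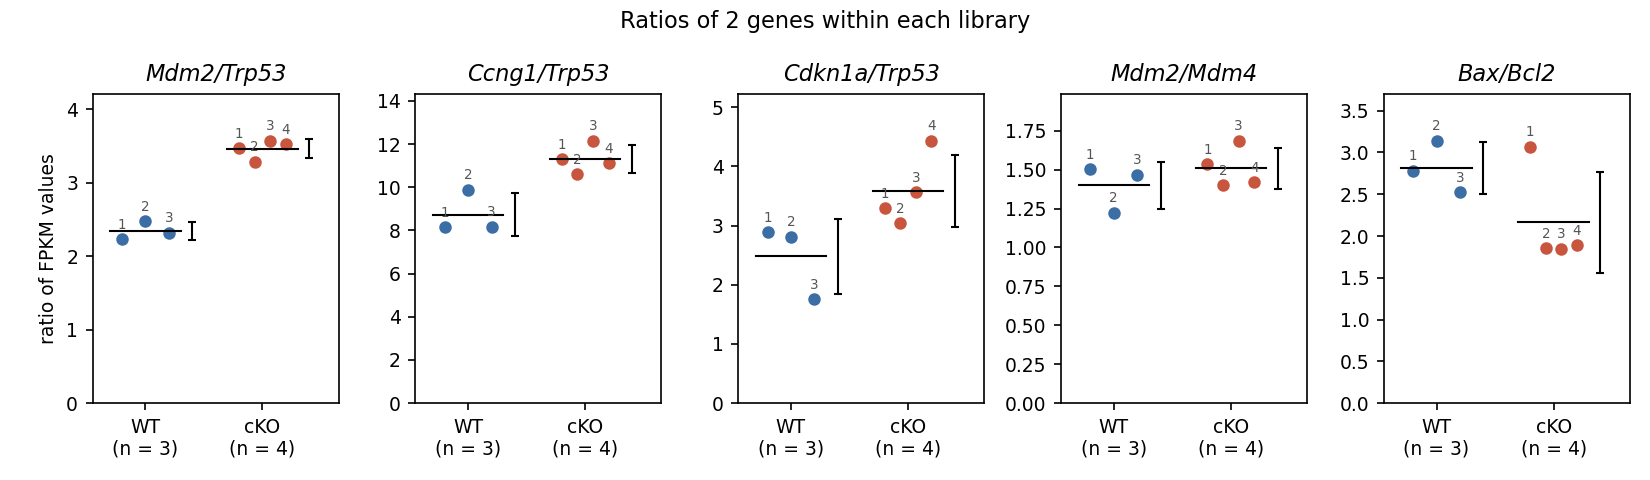
Ratios of FPKM values within each library (y axes from 0), with replicate numbers, group means as lines and 1 SD as bars (WT, n = 3; cKO, n = 4). The groups are apart for the 3 ratios to Trp53 and overlap for Mdm2 over Mdm4 and Bax over Bcl2.

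Genes that act on p53 were examined as a list of 23 regulators and relatives, of which 22 were tested; Cdkn2a was below the filter. edgeR called 0 of them, with 3 at an unadjusted p under 0.05, all higher in the libraries labelled cKO (background 4.22% of genes higher and 2.91% lower). Of the log2 fold changes, 16 were positive and 6 negative, with a median of 0.07. The list was written with earlier results of these data known. Hipk2, a kinase that phosphorylates p53, had 0.32 ± 0.10 (SE; edgeR adjusted p = 0.679), and Rchy1, a ubiquitin ligase for p53, had 0.29 ± 0.11 (SE; edgeR adjusted p = 0.694). Chek1, the checkpoint kinase, made up the third, with means of 1.01 ± 0.298 CPM (WT, SD, n = 3) and 1.69 ± 0.314 CPM (cKO, SD, n = 4). Values of Chek1 did not overlap between groups, nor did those of the acetyltransferase gene Kat5 (35.73 to 38.1 CPM in WT, 33.9 to 35.65 CPM in cKO). These were 2 of the 22 genes tested, against 7.38% of all genes, and both were picked out after their values were seen. Chek1 had 11 to 33 counts a library (edgeR unadjusted p = 0.0411). The Kat5 groups lay 0.0771 CPM apart, with a log2 fold change of -0.08 (edgeR unadjusted p = 0.339). The most abundant per length were Rpl5 (0.03 ± 0.07, SE) and Rpl11 (-0.15 ± 0.11), ribosomal proteins that bind MDM2, and the deubiquitinase gene Usp7 (0.05 ± 0.07).

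A further 38 p53 target genes outside the 10 members showed no common direction, with 18 positive and 17 negative log2 fold changes among 35 tested and a median of 0.01. The values ran from -0.34 to 0.37. edgeR called 0, with 1 at an unadjusted p under 0.05 (2.86% of the list, against 7.14% of all genes), namely Trp53inp1, a stress-induced p53 partner, at 0.35 ± 0.16 (SE; edgeR adjusted p = 0.696). None of the 35 had groups that did not overlap. Plk2 (-0.02 ± 0.09, SE), the adenylate kinase gene Ak1 (-0.13 ± 0.08) and the mTORC1 inhibitor gene Ddit4 (0.18 ± 0.12) were among the genes named from it. Gdf15, Gtse1 and Trp53cor1 were below the filter.

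Partners of Bax and Bbc3 in mitochondrial apoptosis, 17 BCL-2 family and caspase genes tested of 18, had 10 positive and 7 negative log2 fold changes with a median of 0.01. edgeR called 0, with 1 at an unadjusted p under 0.05 (5.88% of the list, against 7.14% of all genes), namely Bok, a BAX relative. Bok had 36.3, 31.6 and 35.5 CPM in WT replicates 1 to 3 and 30.8, 21.6, 29.4 and 28.2 CPM in cKO replicates 1 to 4. Each library labelled cKO was below each WT library, with a log2 fold change of -0.33 ± 0.12 (SE, edgeR adjusted p = 0.694). Groups did not overlap for 1 of the 17 genes, against 7.38% of all genes. The anti-apoptotic genes Mcl1 (0.17 ± 0.08, SE), Bcl2l1 (0.01 ± 0.10) and Bcl2l2 (-0.12 ± 0.08) overlapped between groups. Among cyclins, their kinases and the RB family, downstream of p21, 20 of 22 were tested and edgeR called 0, with 0 at an unadjusted p under 0.05. Of these 12 were positive and 8 negative, with a median of 0.08; Rb1 had 0.25 ± 0.12 (SE) and Ccnd2 0.19 ± 0.09. The most abundant per length were Pcna (-0.01 ± 0.11), the CDK inhibitor gene Cdkn1b (0.16 ± 0.09) and E2f4 (0.06 ± 0.10), which encodes a transcription factor bound by RB family proteins. The mitotic genes Ccnb1 and Cdk1 were below the filter.

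**Figure D5:**
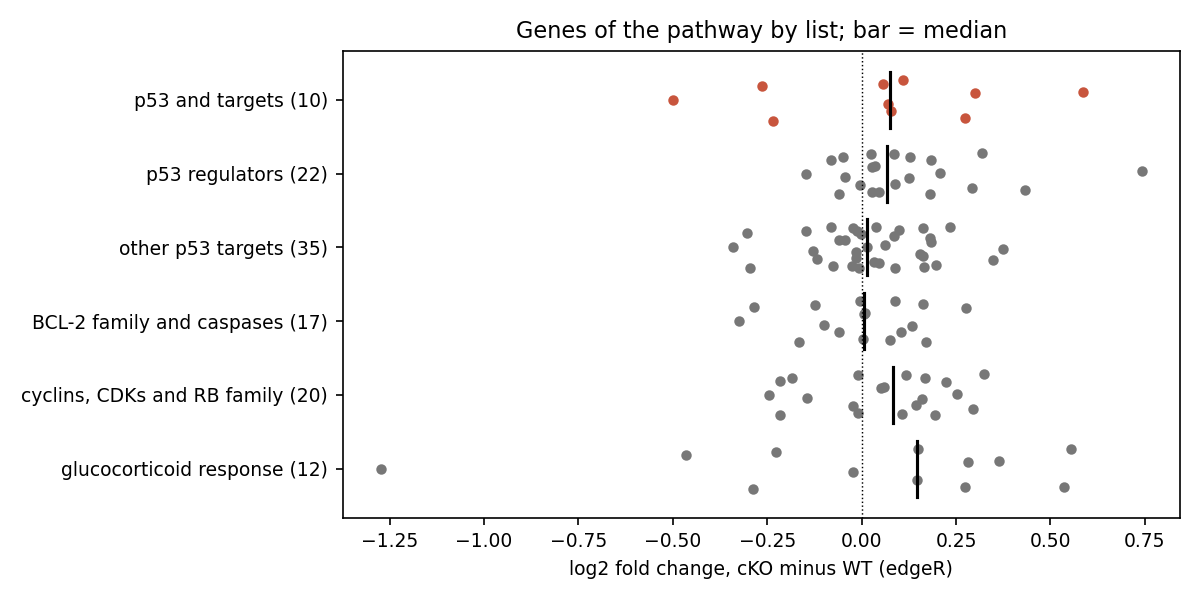
Log2 fold changes (x axis, cKO minus WT, edgeR) of single genes, 1 point each, for the 10 members and for 5 lists, with the number of genes tested in brackets and the median as a bar; vertical position within a row has no meaning. Medians lie between 0.01 and 0.15, and the members are spread to both sides of 0.

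Relatives of the members were compared gene by gene. Sesn3, a sestrin not among the p53 targets listed, was more abundant per length than Sesn1 (21.9 against 17.6 FPKM) and had 0.14 ± 0.12 (SE), while Sesn2 had -0.08 ± 0.16. Ccng2, the second cyclin G gene, had 0.04 ± 0.08, Mdm4 0.18 ± 0.10, Bak1 -0.06 ± 0.20 and Zmat2 -0.15 ± 0.08. Cdkn1c, which like Cdkn1b is a CDK inhibitor gene related to Cdkn1a, had -0.15 ± 0.22. Phlda1 had 0.35 ± 0.16 with an unadjusted p of 0.0465 (edgeR adjusted p = 0.696). Trp63 and Trp73, the p53 family members, had 0.43 ± 0.48 and -0.05 ± 0.39 at means under 1 CPM in both groups, and Phlda2 and Edar were below the filter.

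Cdkn1a is also raised by glucocorticoids, so 12 genes of that response were read beside it. They had 7 positive and 5 negative log2 fold changes, with 5 at an unadjusted p under 0.05 (41.7% of the list, against 7.14% of all genes), of which 3 were higher and 2 lower in the libraries labelled cKO, and 0 called. Groups did not overlap for 4 of the 12, Fkbp5, Per1, Errfi1 and Mt2, against 7.38% of all genes. Errfi1 had 0.36 ± 0.09 (SE; edgeR adjusted p = 0.679) and Sgk1 0.55 ± 0.16 (edgeR adjusted p = 0.679), while Fkbp5 had -0.23 ± 0.09 and the metallothionein gene Mt2 -1.27 ± 0.46. The metallothionein gene Mt1 (-0.02 ± 0.14) and Tsc22d3 (0.27 ± 0.18) were the other 2 named for their level. The list was written with earlier results of these data known, so its shares cannot be read as an excess. Whether the glucocorticoid response had a part in the values of Cdkn1a was not tested.

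The genes whose log2 CPM over the 7 libraries was most like that of Trp53 were Tox, Gtf3c1 and Mad2l1bp (Pearson r of 0.99, 0.98 and 0.96), and for Cdkn1a they were Sned1, Limd1 and Crtc3 (0.99, 0.97 and 0.96). These are the 3 highest of 16307 comparisons each over 7 libraries that share their genotypes and their depth, and are given as a description. Sned1 shared with Cdkn1a the low WT replicate 3 (7.59 CPM) and the high cKO replicate 4 (14.5 CPM), with 11.5 to 12.4 CPM in the other 5 libraries. No other member was among these 6 genes.

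Levels of cell type markers are given beside these values, since in bulk tissue fewer cells of a type and less RNA per cell cannot be told apart. Summed excitatory neuron markers were 4519 to 5082 CPM in WT and 3686 to 4516 CPM in the libraries labelled cKO, barely apart. Of these 5 genes 5 were lower, and 1 had groups that did not overlap. Summed astrocyte markers were 1153 to 1248 CPM and 1275 to 1360 CPM. Of those 5 genes 4 were higher, and 1 had groups that did not overlap. Among all genes 51.8% were higher and 7.38% had groups that did not overlap. Inhibitory neuron markers overlapped, at 755 to 861 CPM and 845 to 1225 CPM with 4 of 5 genes higher, as did those of striatal neurons, at 616 to 824 CPM and 674 to 1195 CPM with 6 of 6 genes higher. Oligodendrocyte markers overlapped too, at 2999 to 4313 CPM and 3276 to 6392 CPM, with 7 of 7 genes higher. Microglia (226 to 283 and 218 to 239 CPM) and endothelial markers (183 to 220 and 200 to 213 CPM) overlapped as well, each with 1 of 5 genes higher, and 0 markers of these lists were at 0 in all libraries. The part of cell composition in the values of Trp53, Mdm2 and Bbc3 was not tested. WT replicate 1 and cKO replicate 3 had the highest meningeal fibroblast markers (59.6 and 61.6 CPM, against 27.6 to 40.4 in the others). Without them the log2 fold changes were 0.25 for Mdm2, -0.27 for Trp53 and -0.52 for Bbc3. Unadjusted p in edgeR were then 0.0117, 0.0627 and 0.0462. Without cKO replicates 3 and 4, high in olfactory bulb and choroid plexus markers, the log2 fold changes were 0.31, -0.22 and -0.61. Unadjusted p in edgeR were 0.00832, 0.164 and 0.0271 in that setting.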

How the data were processed

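RNA-seq of 7 mouse motor cortex libraries was analysed from 2 tables that list the same 54532 genes. One holds raw gene counts deposited by the authors, the other the FPKM the authors computed from them (count per kilobase of gene length, scaled by a total for each library). The submitters' processing notes name featureCounts 1.5.0-p3, DESeq2 1.20.0 and the build mm10. Which aligner, annotation release and strand setting were used, and how reads with several matches were treated, is not given in the sources used here. The FPKM imply library totals 0.968 to 1.02 times the summed counts.

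Counts were tested with edgeR 4.0.16 in R 4.3.3 (TMM scaling, filterByExpr, quasi-likelihood F test, genotype as the only factor), with Benjamini-Hochberg adjustment over all 16308 genes tested and a threshold of 0.05. Standard errors are the log2 fold change over the root of F. CPM are counts scaled to a common TMM-adjusted library size. The code was tested on simulated data. Promoter windows are from RefSeq and exon positions from GENCODE, both on GRCm38 (mm10). The members were chosen, and the gene lists and tests written, with earlier results of these data known. Named from each list were the 3 genes with the highest mean FPKM and the 2 with the smallest unadjusted p, and every relative of a member. Genes named only because of their unadjusted p or because their groups did not overlap, and the ratios between genes, were chosen after their values were seen.

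Alternatives were RLE, upper quartile and library-size scaling; no filter, and a filter of CPM of at least 1 in 3 libraries or more; DESeq2 1.42.0; limma-voom (limma 3.58.1); limma-trend on FPKM with a pseudocount of 1 or 0.1 and a mean of at least 0.5, or unfiltered with a pseudocount of 1; a Y-linked covariate; the replicate number as a block; and leaving libraries out. The titles give both groups the numbers 1 to 3. Across genes, equally numbered libraries correlated in their deviations from the group means at 0.110, 0.128 and 0.122, each above 0.1. Unequally numbered pairs gave -0.239 to 0.210. Of these, WT replicate 2 with cKO replicate 4 (0.210) and WT replicate 1 with cKO replicate 3 (0.129) exceeded all 3. These correlations thus do not show whether the numbers pair libraries. The main test left the numbers out, and the block was run as an alternative only. Chi-square per degree of freedom between libraries was 4.42 to 23.1, so each library counted as 1 replicate. Library totals were 15181390 to 16463721 counts. Figures were drawn with matplotlib 3.10.9.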

Additional observations from a re-analysis of the deposited data

How the results depend on the processing

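Over 22 other settings, 0 of the 10 members were called in any, with 1 to 3 at an unadjusted p under 0.05. The count of all genes called was 0 in edgeR, 10 with DESeq2, 198 with no filter, 3 on log2(FPKM + 1) with no filter and 2 with the replicate block, and 1 without WT replicate 1 and cKO replicate 3 and 1 without cKO replicates 3 and 4. Leaving out 1 library gave 0 to 3 genes. With the replicate block 1 member, Mdm2, had an unadjusted p under 0.05 (log2 fold change 0.31), and the block changed no call among the members. Sesn1 alone changed sign, to -0.026 without cKO replicate 1 (-0.026 to 0.11 over the libraries left out singly) and -0.042 without WT replicate 1 and cKO replicate 1, a setting chosen after seeing the data. Fold changes of the other 9 members kept their sign in every setting that tested them; Eda2r was not tested in 3, and DESeq2 gave no adjusted p for Bbc3 or Eda2r. Counts of 6 to 70 a library limit what can be seen for Eda2r and Bbc3.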
